A study of Homo sapiens with 6 samples.

Results

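AQP3, AQP10 and AQP11 are 3 of the 13 aquaporin family genes with a named probe set on these arrays, out of 14884 named genes in all. They were taken by gene symbol, with 1 probe set each, and set beside the other 10 (AQP1, AQP2, AQP4, AQP5, AQP7, AQP8, AQP9, AQP12A, AQP12B and the lens aquaporin MIP). The 3 were picked on their differences between the hairpin and scramble arrays of this same series, so those differences between groups are given below as a description, without a test.

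Caco-2 is a cell line derived from a human colon carcinoma whose cultures grow into a sheet resembling absorptive epithelium, and its total RNA was hybridised to 6 single-channel arrays. All cells had been infected with a lentivirus and were sampled on day 17 after infection. The control group expressed scramble shRNA, and the other groups expressed FAM46A-shRNA#2 or FAM46A-shRNA#4, which are different hairpins directed against FAM46A (TENT5A), a non-canonical poly(A) polymerase. Each group held 2 arrays, labelled as biological replicates of the 1 cell line. The level of FAM46A was not analysed here, so the groups follow the labels alone. The comparisons address which transcripts differ once FAM46A is targeted, and here what happened to the aquaporins. In the deposited table every probe set is centred, with its median across the 6 arrays at 0. For this reason only differences between groups can be read, and neither the level of a gene nor signal over background could be compared, so the labelled cell type could not be checked by marker levels. The base of the logarithm is not stated and was taken to be 2. In these bulk samples fewer cells of a type and less RNA per cell cannot be told apart.

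Aquaporins are membrane channels through which water crosses cells along osmotic gradients. A subgroup, the aquaglyceroporins (AQP3, AQP7, AQP9 and AQP10), also passes glycerol and other small uncharged solutes, and some members pass hydrogen peroxide. In the gut epithelium AQP3 is known from the basolateral membrane of colonic cells and AQP10 from the enterocytes of the small intestine, while AQP11 is a divergent aquaporin of intracellular membranes, chiefly the endoplasmic reticulum.

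Because AQP3 and AQP10 were lower together with either hairpin, the 250 bases before the start of each gene are shown (RefSeq, GRCh38.p14). That of AQP3 lies on the minus strand at chr9:33447594-33447843, and that of AQP10 on the plus strand at chr1:154320843-154321092. Both run 5′ to 3′ in the direction of the gene, and capitals mark the motifs found.
AQP3: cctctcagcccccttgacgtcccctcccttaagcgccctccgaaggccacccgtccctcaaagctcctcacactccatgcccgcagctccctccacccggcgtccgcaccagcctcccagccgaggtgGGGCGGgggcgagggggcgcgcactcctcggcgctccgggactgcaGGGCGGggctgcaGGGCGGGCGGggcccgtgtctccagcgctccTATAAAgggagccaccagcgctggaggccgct
AQP10: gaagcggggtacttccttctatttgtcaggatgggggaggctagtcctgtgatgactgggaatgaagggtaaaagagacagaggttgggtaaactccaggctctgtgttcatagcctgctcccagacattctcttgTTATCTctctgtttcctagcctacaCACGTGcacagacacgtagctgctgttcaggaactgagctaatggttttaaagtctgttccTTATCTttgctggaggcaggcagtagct
The search covered 9 motifs on both strands: TATAAA (the TATA box), GGGCGG (the GC box), CCAAT (bound by NF-Y), CACGTG (an E-box), TGANTCA (AP-1), AGATAA (bound by GATA factors), TTTATG (bound by CDX factors), TGTTTAC (bound by FOXA factors) and CAAAGTCCA (bound by HNF4). AQP3 held a TATA box 32 to 27 bases before its start, a motif present in 11.1% of the 27305 windows of this length. It also held 4 GC boxes, of which the pair nearest the start overlaps, and 42.3% of all windows held at least 1. AQP10 held 2 GATA motifs, on the opposite strand, the nearer 28 to 23 bases before the start, and 9.37% of all windows held 1 or more. Its E-box, 89 to 84 bases before the start, was of a kind found in 6.49% of windows. The windows shared none of the 9 motifs, and they differed in composition, with 73.6% G and C and 23 CpG for AQP3 against 48.8% and 3 for AQP10 (medians of all windows, 58% and 11). A match of letters is a description and not a site of binding.

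AQP3, a channel for water, glycerol and hydrogen peroxide (chromosome 9, 33441160 to 33447593), showed the largest difference of the family. Its values were 1.19 and 1.36 on the scramble arrays, -0.30 and -0.19 with shRNA#2, and -0.01 and 0.01 with shRNA#4. Both scramble arrays were high, all 4 hairpin arrays were low, and the lowest scramble array lay 1.18 above the highest hairpin array. On the log2 scale the difference from scramble was -1.40 ± 0.063 for the mean of both hairpins (2.63-fold lower; ± is the standard error, SE, of the limma fit, n = 2 arrays per group). It was -1.52 ± 0.072 with shRNA#2 and -1.28 ± 0.072 with shRNA#4. The shRNA#2 arrays also lay below both shRNA#4 arrays, by -0.24 ± 0.072 between the group means. In order of level, scramble stood above shRNA#4 and shRNA#4 above shRNA#2, and no neighbouring groups overlapped.

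AQP10, an aquaglyceroporin of the small intestine (chromosome 1, 154321093 to 154325325), differed from scramble by a similar amount but less evenly. Its values were 0.88 and 1.64 for scramble, -0.01 and -0.03 for shRNA#2, and -0.03 and 0.01 for shRNA#4. The scramble arrays stood far from each other, with an SD of 0.54, whereas the hairpin arrays lay close together and the hairpin groups overlapped. The lowest scramble array was still 0.86 above the highest hairpin array. The difference was -1.27 ± 0.19 for the mean of both hairpins (2.42-fold lower), with -1.28 ± 0.22 for shRNA#2 and -1.27 ± 0.22 for shRNA#4. Between the hairpins it was -0.01 ± 0.22. How large the AQP10 difference is rests on which scramble array is used, with -1.66 without replicate 1 of scramble and -0.89 without replicate 2.

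AQP11 (chromosome 11, 77589953 to 77610356) showed a smaller difference. It stood at 0.37 and 0.52 on the scramble arrays, at 0.01 and -0.01 with shRNA#2, and at -0.32 and -0.05 with shRNA#4. The scramble arrays again lay above all hairpin arrays, by at least 0.35. The mean of both hairpins differed from scramble by -0.53 ± 0.086 (1.45-fold lower), shRNA#2 by -0.44 ± 0.099 and shRNA#4 by -0.62 ± 0.099. Both shRNA#4 arrays lay below both shRNA#2 arrays, the reverse of the order of the hairpins for AQP3. The share of all genes whose hairpin groups lie apart was not counted. The shRNA#4 arrays were apart from each other (SD 0.19), and the difference of 0.18 ± 0.099 between the hairpin groups was within that spread. It became 0.05 without replicate 1 of shRNA#4 and 0.32 without replicate 2.

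Among all 14884 genes, ordered from the lowest change for the mean of both hairpins, AQP3 was at position 46, AQP10 at 65 and AQP11 at 464. Hairpin arrays all below both scramble arrays were seen for 16.7% of genes. An adjusted p under 0.05 (limma, Benjamini-Hochberg over all genes) was reached by 25.4% of genes in this comparison, 14.8% higher and 10.6% lower. The shares were 21.6% for shRNA#2 against scramble (12.1% higher and 9.54% lower), 26.1% for shRNA#4 against scramble (15.7% higher and 10.4% lower) and 15.3% between the hairpins. The comparisons of each hairpin with scramble share the scramble arrays. The labels do not say how the replicates were separated, so the p-values reflect no more than the spread among these samples, which may be technical.

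**Figure D1:**
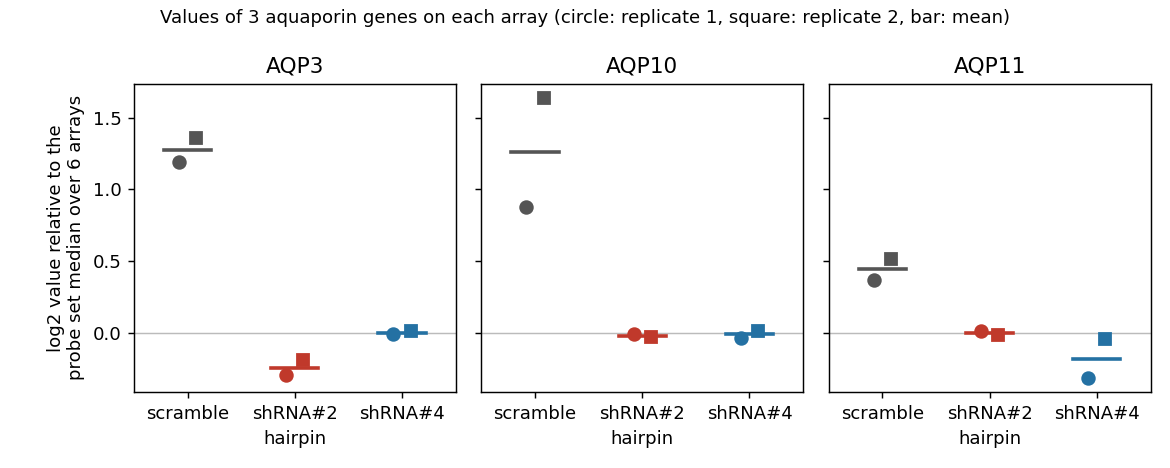
Log2 value of AQP3, AQP10 and AQP11 relative to the probe set median (vertical axis) on each of the 6 arrays by hairpin group (horizontal axis), with circles for replicate 1, squares for replicate 2 and bars for the mean of 2 arrays. The scramble arrays lie above all 4 hairpin arrays in each panel, and those of AQP10 are the farthest apart (0.88 and 1.64).

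None of the other 10 family genes passed the test in any comparison, 0 calls in 40 tests with limma, against 8 at an unadjusted p under 0.05. These 8 were 3 for the mean of both hairpins, 2 for shRNA#2, 3 for shRNA#4 and 0 between the hairpins. Of all 14884 genes 5318, 4875, 5300 and 4149 reached it in these comparisons, so the 8 do not stand out. With the replicate number as a block 1 passed, AQP7 with shRNA#4 (-0.38 ± 0.10, limma adjusted p 0.0463). For the mean of both hairpins their changes ran from -0.30 to 0.01 with a median of -0.08, where the median of all genes was 0.0028. The 2 remaining glycerol channels were AQP7 and AQP9. AQP7, known from fat cells, stood at 0.16 and 0.23 for scramble, at 0.01 and -0.08 for shRNA#2 and at -0.35 and -0.01 for shRNA#4. Its 4 hairpin arrays were below both scramble arrays, with a change of -0.30 ± 0.097 and an adjusted p of 0.0705 (limma). Without replicate 2 of shRNA#4, which lay nearest scramble of the pair, AQP7 was called (-0.39 ± 0.056, adjusted p 0.01, limma). AQP7 has near-identical pseudogene copies, so its probe set may be shared with them. The probe sets of AQP7P1 and AQP7P3 were at -0.08 ± 0.056 and 0.00 ± 0.040. AQP9, a channel of liver cells, changed by -0.07 ± 0.045 (adjusted p 0.375, limma). Its hairpin arrays also lay below both scramble arrays, by 0.0069 at the nearest. Among the other 10 family genes this held for 4, AQP7, AQP8, AQP9 and AQP12B, and among all genes for 16.7%.

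AQP8, a channel of colonic and pancreatic epithelium that also passes hydrogen peroxide, had values of 0.21 and 0.09 for scramble, -0.12 and 0.02 for shRNA#2, and -0.04 and -0.02 for shRNA#4. Both scramble arrays lay above all 4 hairpin arrays, while the hairpin groups overlapped each other, and the change of -0.19 ± 0.060 did not pass (adjusted p 0.0702, limma). AQP12A and AQP12B, adjacent near-identical genes of the AQP11 subgroup between which probe signal may be shared, were at -0.25 ± 0.12 and -0.21 ± 0.075, with adjusted p of 0.188 and 0.102 (limma). The hairpin arrays of AQP12B were below scramble and those of AQP12A overlapped it. The classical water channels AQP1 (-0.10 ± 0.066), AQP2 (0.01 ± 0.043), AQP4 (-0.04 ± 0.054), AQP5 (0.00 ± 0.048) and MIP (-0.02 ± 0.047) had hairpin and scramble arrays that overlapped. The AQP2 value is the mean of 2 probe sets that went opposite ways, by -0.09 and 0.11. For dim probe sets a small difference is also what an undetected gene would give, and detection was not analysed here.

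**Figure D2:**
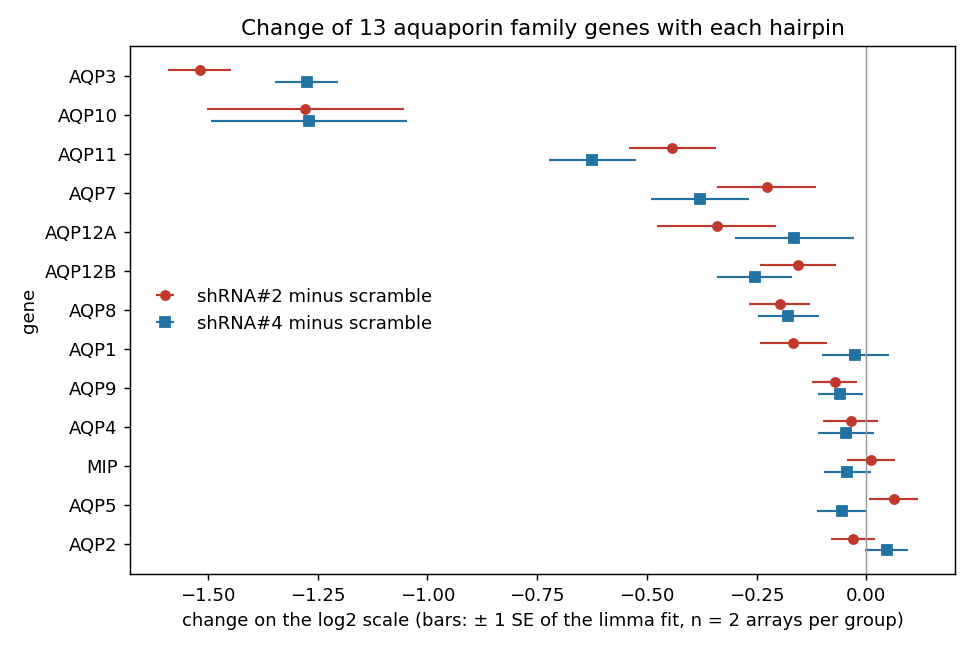
Change on the log2 scale (horizontal axis) of the 13 family genes (vertical axis), for shRNA#2 and shRNA#4 each minus the same 2 scramble arrays, with bars of 1 SE of the limma fit. AQP3, AQP10 and AQP11 lie at the left, AQP7 at -0.23 and -0.38 and AQP12A at -0.34 and -0.16 come next, and AQP2, AQP5 and MIP lie near 0.

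The genes around the 3 aquaporins on their chromosomes went both ways. Of the 18 nearest measured genes, 3 on each side of each aquaporin, 5 rose and 1 fell (limma adjusted p under 0.05), and their median change was 0.03. These 6 calls of 18 stand beside 25.4% of all genes, 14.8% higher and 10.6% lower. The split of 5 and 1 was not kept when any 1 array was left out. Such a fit holds 1 array in a group and is less precise, so a call can end with little shift in the change. Without replicate 2 of shRNA#4, AQP7 was at -0.39 and MYO7A at -0.35. The 1 that fell in the fit of all arrays was IL6R, the receptor of interleukin 6, which starts 84.2 kb from AQP10. It stood at 0.76 and 0.55 for scramble, -0.41 and -0.31 for shRNA#2 and 0.06 and -0.06 for shRNA#4, a change of -0.84 ± 0.075 (adjusted p 0.000931, limma). On the other side of AQP10, HAX1, a mitochondrial anti-apoptotic protein, rose by 0.18 ± 0.041 and UBAP2L, an RNA-binding protein, by 0.23 ± 0.056. The call of HAX1 ended without any 1 of the 6 arrays and that of UBAP2L without replicate 1 of scramble, replicate 2 of shRNA#2 or either shRNA#4 array, and with all probe sets fitted singly. Leaving out each array gave changes of 0.165 to 0.185 for HAX1 and 0.18 to 0.28 for UBAP2L.

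Next to AQP3 lies the nucleolar protein gene NOL6, with its lower coordinate 20.2 kb from that of AQP3. NOL6 rose by 0.42 ± 0.080 (adjusted p 0.0114, limma), a call that ended without replicate 2 of scramble (0.33). The pseudogene SUGT1P1 rose by 0.35 ± 0.047. AQP7, on the other side with its lower coordinate 58.0 kb from that of AQP3, is the only family gene among these neighbours. Around AQP11, the chromatin remodelling gene RSF1, at 70.1 kb by lower coordinates, rose by 0.32 ± 0.045. On the other side measured genes were farther off, with GDPD4 at -373 kb and the myosin gene MYO7A at -462 kb. MYO7A was at -0.27 ± 0.092 (adjusted p 0.0888, limma), but was called without replicate 2 of shRNA#4 (-0.35). The other 10 neighbours lay between -0.12 and 0.10 and were not called.

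**Figure D3:**
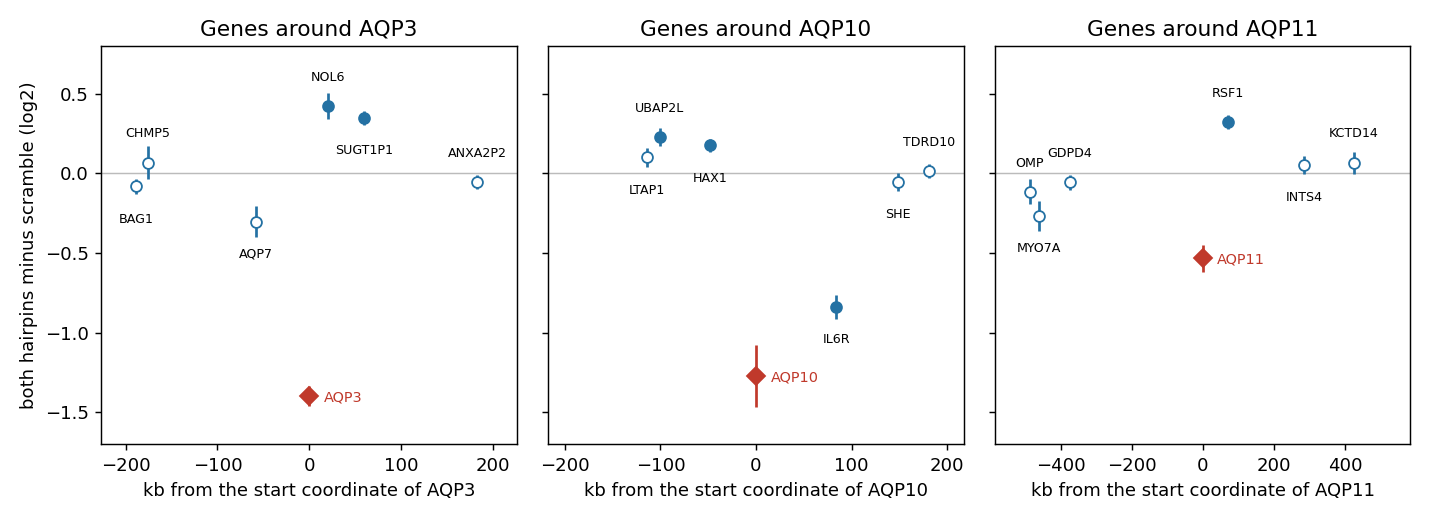
Change for the mean of both hairpins minus scramble (vertical axis, log2, bars of 1 SE) of the 3 nearest measured genes on each side of AQP3, AQP10 and AQP11 against the distance between start coordinates in kb (horizontal axis). Filled circles passed an adjusted p under 0.05, and only IL6R among them lies below 0. The start coordinate is the lower coordinate of each gene, whatever its strand.

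Genes of glycerol and triglyceride handling fell more often than they rose. Of 32 listed, 22 were measured, and 10 fell, 1 rose and 11 were not called for the mean of both hairpins (limma), with a median of -0.23. By the same threshold 10.6% of all genes were lower and 14.8% higher. MOGAT3, which makes diacylglycerol from monoacylglycerol, fell by 1.496 ± 0.13, and its values were 1.39 and 1.27 for scramble, -0.38 and -0.07 for shRNA#2 and -0.30 and 0.07 for shRNA#4. DGAT1 and DGAT2, the enzymes of the last step of triglyceride synthesis, fell by 1.35 ± 0.14 and 1.15 ± 0.070. LPIN3, a phosphatidate phosphatase, fell by 0.95 ± 0.13. Of the enzymes at glycerol 3-phosphate, GPD1 fell by 0.39 ± 0.063, while GPD2 was at -0.07 ± 0.051 and the glycerol kinase family members GK5 and GK2 at -0.18 ± 0.059 and -0.05 ± 0.044, none of these 3 called for the mean of both hairpins. GK5 was called with the replicate number as a block (adjusted p 0.043, limma). GPD2, the mitochondrial glycerol 3-phosphate dehydrogenase, differed between the hairpins, at 0.16 ± 0.058 with shRNA#2 (adjusted p 0.117) and -0.30 ± 0.058 with shRNA#4 (adjusted p 0.0122, limma). The 1 rise was PNPLA3 (0.30 ± 0.085, adjusted p 0.0461, limma). This call ended in 9 alternatives, among them the replicate block (adjusted p 0.0553) and leaving out replicate 1 of scramble, replicate 1 of shRNA#2 or either shRNA#4 array. Counts were 11 lower and 1 higher with shRNA#2, and 10 lower and 0 higher with shRNA#4. Of all genes 9.54% were lower and 12.1% higher with shRNA#2, and 10.4% lower and 15.7% higher with shRNA#4. For both hairpins fewer members were called when replicate 1 of shRNA#2 was left out.

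Epithelial ion and fluid transport genes fell in 6 of 11 measured members (38 listed), and 0 rose. The median was -0.44, and of all genes 10.6% were called lower and 14.8% higher. FXYD3, a regulator of the sodium pump, fell by 1.34 ± 0.066. GUCY2C, the intestinal receptor of guanylin that drives fluid secretion, fell by 1.11 ± 0.082, from 1.23 and 0.95 on the scramble arrays to values from -0.07 to 0.00 on the hairpin arrays. Its ligand genes GUCA2B and GUCA2A were at -0.44 ± 0.10 and 0.04 ± 0.093, the first called (limma adjusted p 0.0251) and the second not (0.849). The call of GUCA2B ended without replicate 1 of scramble (-0.32) or either shRNA#4 array. It also ended with quantile normalization (limma adjusted p 0.0554) and with all probe sets fitted singly (0.0633). The scaffold proteins of the brush border NHERF4 and PDZK1 fell by 0.90 ± 0.11 and 0.49 ± 0.053. CA2, a carbonic anhydrase, fell by 0.63 ± 0.084, with -1.04 for shRNA#4 and -0.23 for shRNA#2, the second not called (limma adjusted p 0.167).

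Osmotic stress and cell volume genes went both ways, with 4 of 9 measured members higher and 3 lower (26 listed). Of all genes 14.8% were called higher and 10.6% lower. HSPA4L, a chaperone of the HSP110 family that is induced by osmotic stress, rose by 1.76 ± 0.079, and WNK1, a kinase that senses chloride, by 0.42 ± 0.053. TMEM63B and TMEM63A, channels opened by membrane tension, fell by 0.50 ± 0.045 and 0.43 ± 0.042. Without replicate 1 of scramble 4 members were called, 2 in each direction. Genes that make or remove hydrogen peroxide fell in 6 and rose in 2 of 22 measured (30 listed), with a median of -0.04. These counts stand beside the same shares of all genes. Catalase (CAT) fell by 0.54 ± 0.060 and the secreted glutathione peroxidase GPX3 by 0.37 ± 0.055, and GPX8, a peroxidase of the endoplasmic reticulum, rose by 1.45 ± 0.096. NOX1, the superoxide-producing oxidase of the colon, fell by 0.42 ± 0.10 (adjusted p 0.0299, limma), a call that ended in 6 alternatives, among them each hairpin array left out and replicate 2 of scramble left out (-0.24, adjusted p 0.0939). Without replicate 2 of scramble 5 members of this list were called in place of 8.

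Of 34 intestinal and nuclear receptor transcription factors 21 were measured, 8 fell and 1 rose, with a median of -0.17. CREB3L3, a membrane-bound factor of lipid metabolism, fell by 1.43 ± 0.10, MAF by 0.95 ± 0.057 and GATA4, a factor of the proximal intestine, by 0.56 ± 0.051. PPARA and PPARG, lipid-activated nuclear receptors, fell by 0.55 ± 0.071 and 0.36 ± 0.085, and the intestinal homeobox factor CDX2 by 0.26 ± 0.065. PPARG fell with shRNA#4 (-0.60, adjusted p 0.0069, limma) but was at -0.11 with shRNA#2, whose arrays overlapped scramble (adjusted p 0.542). The call of PPARG for both hairpins ended without replicate 2 of scramble, either shRNA#2 array or replicate 1 of shRNA#4. That of CDX2 ended without replicate 2 of scramble, either shRNA#2 array or replicate 2 of shRNA#4. Both calls also ended with all probe sets fitted singly (limma adjusted p 0.0638 for PPARG and 0.0632 for CDX2). FOXA2 rose by 0.60 ± 0.065. Each of the 5 lists was chosen with earlier results of these arrays known. Their shares of called members are to be read beside the 25.4% of all genes (10.6% lower and 14.8% higher).

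Enterocyte markers moved with these groups. For the mean of both hairpins VIL1 fell by 0.61, ANPEP by 1.23 and SI by 1.49, 3 of 3 measured of 5. Over all genes 25.4% were called in this comparison, 10.6% lower. Of 4 measured general epithelial markers EPCAM fell by 0.15, a call that ended without any 1 of the 6 arrays, and the keratins KRT8, KRT18 and KRT19 were not called in this comparison. KRT18 rose with shRNA#4 (0.49, adjusted p 0.0315, limma), and for both hairpins it was called with the replicate number as a block (0.30, adjusted p 0.00811) and without replicate 1 of shRNA#4 (0.37, adjusted p 0.0491). Of the goblet markers TFF3 fell by 0.38, 1 of 4 measured, a call that ended without replicate 1 of scramble (-0.27). The 2 measured immune markers, CD68 and LYZ, which epithelial cells can also express, fell by 2.01 and 1.16. No enteroendocrine (4 measured), fibroblast (2), endothelial (2) or keratinocyte marker (2) was called by limma in any comparison. Of all genes 15.3% to 26.1% were called, depending on the comparison. For the mean of both hairpins 0 of these markers had an unadjusted p under 0.05, which 5318 of all 14884 genes reached. With shRNA#4 1 enteroendocrine marker did, and 1 fibroblast marker did with shRNA#2 and between the hairpins. The part of these markers in the aquaporin differences was not tested.

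**Figure D4:**
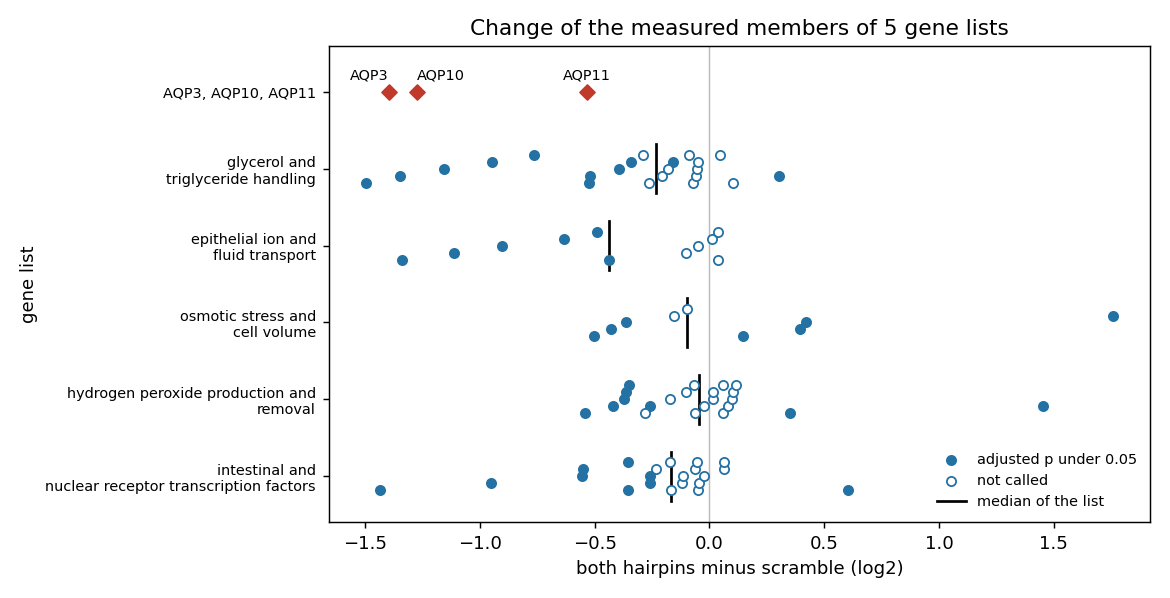
Change for the mean of both hairpins minus scramble (horizontal axis, log2) of each measured member of 5 gene lists (vertical axis), with filled circles for an adjusted p under 0.05, open circles for no call and a black line at the list's median. AQP3, AQP10 and AQP11 are drawn as diamonds at -1.40, -1.27 and -0.53, and the largest rise is HSPA4L at 1.76.

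Among 11903 protein-coding genes outside the family, those with the array pattern most like each aquaporin were found by the root mean square difference over the 6 arrays. For AQP3 they were IGFBP6, a binding protein of insulin-like growth factors (0.049), the prolactin receptor PRLR (0.090) and the mitochondrial aminotransferase AGXT2 (0.091). IGFBP6 had values of 1.13 and 1.38 for scramble, -0.25 and -0.13 for shRNA#2 and 0.04 and -0.04 for shRNA#4. For AQP10 the nearest were the sorting nexin SNX4 (0.16), the esterase AADAC (0.18) and PRLR (0.19). AADAC shared the wide gap between the scramble arrays, at 1.26 and 1.82. For AQP11 they were CIDEB, a lipid droplet protein (0.047), the NAD hydrolase SARM1 (0.053) and the fatty acid elongase ELOVL1 (0.054). CIDEB stood at 0.34 and 0.56 for scramble, 0.00 and 0.00 for shRNA#2 and -0.22 and -0.06 for shRNA#4. The same measure between the aquaporins was 0.22 for AQP3 and AQP10, and 0.52 for AQP11 with either. It also depends on the size of a difference, which was smaller for AQP11. Pearson r over the 6 arrays was 0.95 for AQP3 and AQP10, 0.87 for AQP3 and AQP11 and 0.91 for AQP10 and AQP11. As the 3 were picked on their differences between groups, r is a description. The 8 genes named here from outside the family were picked for their likeness and carry no test.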

How the data were processed

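Biotin-labelled sense-strand DNA was prepared from 100 ng of total RNA with the GeneChip WT PLUS kit, per the labels' protocols. The deposited values were taken as log2 and were relative to the probe set median over the 6 arrays, read from the values (all 48144 medians within 5e-07 of 0). Summarisation, normalization between arrays, software and log base are not stated in the labels or the file. Of the probe sets, 16098 had 1 gene symbol and were used. The other 32046 were left out, as those with no symbol or several were not kept, and these kinds were not counted apart. Symbols followed the RefSeq table by Entrez ID (0 changed), and probe sets of a gene were averaged (779 of 14884 genes had several).

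Groups were compared in limma 3.58.1 (R 4.3.3) with 1 fit of all 6 arrays, 1 coefficient per group, eBayes without trend (residual degrees of freedom 3, prior 3.09), and p-values were adjusted by Benjamini and Hochberg's method across all genes. The number of arrays limits the precision. The fit was tested on simulated data with independent noise on each array and far fewer changed genes than were called here. That test does not cover the deviations shared by replicate number given below. Named genes were every family member, the 3 nearest measured genes on each side, the 4 list members that changed most, per list (others named here were chosen after their values were seen) and the 3 nearest patterns. Arrays of the same replicate number deviated together (r across genes 0.18, 0.12 and 0.20 for the 3 pairs of groups), so a fit with that number as a block is given where it changes a call. The labels do not say what the number marks. Members, lists and tests were chosen with earlier results of these data known. Alternatives covered normalization, variance prior, probe set choice, thresholds, a replicate block and leaving out arrays. Figures used Python 3.11.15, matplotlib 3.10.9 and pandas 2.3.3. AQP6 and AQP7B were not analysed here, nor were the promoter of AQP11 and the protein sequences.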

Additional observations from a re-analysis of the deposited data

Results flagged for a closer look

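Of 68 named genes outside AQP3, AQP10 and AQP11, 12 differed between the hairpins by the test of shRNA#2 against shRNA#4 itself (limma adjusted p under 0.05, which 15.3% of all genes reached). Many of the 68 were named for the size of their change on these arrays, so the 2 shares are not read against each other. Values are shRNA#2 minus shRNA#4 on the log2 scale, with each hairpin's change from the same 2 scramble arrays. CA2 was less reduced with shRNA#2, by 0.81 ± 0.097 (-0.23 against -1.04). PPARG (0.49 ± 0.099), TMEM63A (0.48 ± 0.048), MAF (0.38 ± 0.066), GATA4 (0.30 ± 0.059) and TMEM63B (0.24 ± 0.052) were likewise less reduced with shRNA#2. GPD2 differed by 0.46 ± 0.058 (0.16 against -0.30). The enterocyte enzyme SI (-0.93 ± 0.20), IL6R (-0.36 ± 0.086) and DGAT2 (-0.32 ± 0.080) were more reduced with shRNA#2. HSPA4L rose more with shRNA#2 (0.64 ± 0.091) and GPX8 less (-0.59 ± 0.11). With 2 arrays per group, no array was tested as an outlier within its group.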

How the results depend on the processing

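AQP3, AQP10 and AQP11 stayed below scramble with either hairpin under every alternative run. Their direction could not change when an array was left out, since all their hairpin arrays lie below both scramble arrays. The array weights, variance prior, block and probe set choices returned the same change. The genes were also picked on this difference, so the runs bear on its size alone. Quantile normalization of the centred values gave smaller differences, of -1.06 (both hairpins), -1.22 (shRNA#2) and -0.90 (shRNA#4) for AQP3 and -0.90, -0.91 and -0.90 for AQP10. Leaving out each array gave -1.48 to -1.31 (both), -1.603 to -1.43 (shRNA#2) and -1.36 to -1.19 (shRNA#4) for AQP3, and -1.66 to -0.89, -1.66 to -0.90 and -1.65 to -0.89 for AQP10. For AQP11 it gave -0.61 to -0.46 for both hairpins, -0.76 to -0.49 for shRNA#4 and 0.047 to 0.32 between the hairpins. The difference of AQP10 between the hairpins, which is near 0, ran from -0.03 to 0.02.

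The other 10 aquaporin genes had 0 calls in 40 tests, 1 with the replicate number as a block (AQP7 with shRNA#4, -0.38, limma adjusted p 0.0463), and 0 to 2 when an array was left out. The 2 were AQP7 without replicate 2 of shRNA#4, for both hairpins (-0.39, limma adjusted p 0.01) and for shRNA#4 (-0.55, 0.0103). Of 68 named genes outside AQP3, AQP10 and AQP11 (leaving out those picked for their likeness), the block changed the call for both hairpins of 3, PNPLA3, GK5 and KRT18. Leaving out arrays gave 7 to 9 calls of the glycerol list (main 11), 4 to 6 of the osmotic list (7) and 5 to 7 of the peroxide list (8). An adjusted p under 0.01 left 7 calls in the glycerol list, 5 in the peroxide list and 3 of 6 neighbours. At 0.05 with at least 1.5-fold, 5 glycerol, 1 osmotic, 1 peroxide, 3 transcription factor and 1 neighbour calls remained in number.

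Over all genes 3784 were called for both hairpins, 3220 for shRNA#2, 3884 for shRNA#4 and 2272 between the hairpins. These counts were 2158, 1575, 2122 and 769 at an adjusted p under 0.01, and 823, 828, 1183 and 466 with at least 1.5-fold. With all probe sets fitted singly, named or not, 6141 (both) and 6300 (shRNA#4) of 48144 probe sets were called. These are counts of probe sets and cannot be set against the counts of genes. Leaving out arrays gave 2477 to 3358 (both), 1756 to 2982 (shRNA#2), 2677 to 3476 (shRNA#4) and 761 to 2166 (between the hairpins). The causes of these shifts were not tested. Centring leaves signal over background unknown, so small differences of dim probe sets cannot be told from noise.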
